A study of Mus musculus with 12 samples.

Results

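Adcy1, Adcy2, Adcy3, Adcy5, Adcy6, Adcy8 and Adcy9 encode membrane-bound adenylyl cyclases, and Pde11a encodes a cyclic nucleotide phosphodiesterase. All were followed in the trigeminal ganglion of adult mice with an induced knockout of Prdm12. These are 8 of the 55416 genes counted, and all 8 were among the 16637 with enough reads to be tested. They were picked by name with their levels in both groups already known. Their difference between the groups is therefore given as a description, and tests are reported for measures that the choice did not use.

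Adenylyl cyclases make the second messenger cAMP from ATP when a receptor coupled to the stimulatory G protein Gs is active, and receptors coupled to Gi reduce that output in several of them. cAMP acts through protein kinase A, the EPAC exchange factors and cyclic nucleotide-gated channels until phosphodiesterases break it down. In sensory neurons this route is known for lowering the firing threshold of nociceptors, for example after prostaglandin binds its receptors.

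Polyadenylated RNA from trigeminal ganglia, the sensory ganglia that serve the face, was sequenced in 6 inducible knockout (iKO) and 6 control libraries 1 month after injection. All 12 were from adult C57Bl6 mice. Every iKO library had the genotype Rosa26Cre ERT2; Fl/Fl, with both Prdm12 alleles floxed, and came from mice injected with tamoxifen. Controls 5 and 6 had that same genotype and were injected with corn oil. Controls 1 to 4 were injected with tamoxifen: control 1 was Rosa26Cre ERT2; Fl/+, controls 2 and 3 were +/+; Fl/+ without Cre, and control 4 was Rosa26Cre ERT2; +/+. The Rosa26 locus is active in most cell types, so deletion was not limited to neurons by the driver, and 1 floxed allele could be deleted in control 1. The iKO libraries were 3 female and 3 male, and the controls 2 female and 4 male. The labels do not say whether any library pooled several mice.

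Total counts ran from 13207526 to 24178970 per library. Levels are counts scaled to a common library size (CPM) after TMM scaling, a correction of library size for a few abundant genes. Prdm12 itself ran from 13.2 to 19.2 CPM in iKO and from 57 to 133 CPM in controls, so the groups did not overlap. Its RNA was still read in iKO, where the mean was 15.8% of the control mean. The lowest control was control 6, injected with corn oil, at 57 CPM. Control 1 was at 88.2 CPM, and controls 2 to 5 ran from 118 to 133 CPM. The cause of the low value in control 6 was not tested. Markers of other tissues stood out in single libraries: skeletal muscle genes were highest in iKO 5, pituitary genes in iKO 3, and oligodendrocyte, red blood cell and lymphocyte genes in control 6. Results were therefore also computed without these 3 libraries.

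The 2 genes that separated the groups were Adcy5 and Pde11a, and their promoters are shown because the rest of the account turns on them. The windows cover 250 bases before to 50 bases after the RefSeq start (GRCm38.p6), 5′ to 3′ on the gene's strand, at chr16:35154614-35154913 (plus strand) for Adcy5 and chr2:76338889-76339188 (minus strand) for Pde11a. Capitals mark GC boxes, the letters GGGCGG or CCGCCC.
Adcy5: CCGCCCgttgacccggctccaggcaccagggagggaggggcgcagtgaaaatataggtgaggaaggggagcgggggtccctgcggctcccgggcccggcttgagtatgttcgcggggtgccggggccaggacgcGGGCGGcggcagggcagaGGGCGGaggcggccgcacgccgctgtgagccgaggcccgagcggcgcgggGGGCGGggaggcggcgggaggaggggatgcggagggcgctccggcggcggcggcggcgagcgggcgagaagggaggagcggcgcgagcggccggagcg
Pde11a: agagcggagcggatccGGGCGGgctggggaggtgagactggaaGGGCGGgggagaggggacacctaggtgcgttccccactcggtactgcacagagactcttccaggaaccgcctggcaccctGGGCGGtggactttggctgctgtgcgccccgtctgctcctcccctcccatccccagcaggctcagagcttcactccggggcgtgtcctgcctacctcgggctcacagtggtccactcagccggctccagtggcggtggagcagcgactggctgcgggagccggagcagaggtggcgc
The Adcy5 window held 4 GC boxes and the Pde11a window 3, against 5 each for Adcy1 and Adcy9, 3 for Adcy2, and 1 and 0 in the 2 windows of Adcy3. Of all 32851 promoter windows, 35.7% held at least 1 and 10.7% held at least 3. The full cAMP response element TGACGTCA, the letters bound by CREB, was in neither window, nor were the shorter letters TGACG or CGTCA, against 1.79% and 20.8% of all windows. Of the 8 genes, 6 had a window in the table, and the Adcy9 window alone held the shorter letters, once.

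Adcy5 (ENSMUSG00000022840) encodes a cyclase that is inhibited by Gi and by calcium and is best known as the main cyclase of the striatum. It was at 36.3, 48.9 and 54.5 CPM (lowest, median, highest) in the 6 iKO libraries and at 67.2, 72.4 and 77.7 CPM in the 6 controls. Every iKO library lay below every control, and iKO 2 was the lowest of all. The mean was 47.8 ± 6.45 CPM in iKO and 72.8 ± 4.18 CPM in controls (SD, n = 6 each), so iKO held 65.7% of the control level. The log2 fold change was -0.60 ± 0.085 (SE), with a 95% interval of -0.79 to -0.42, and it was -0.55 without iKO 2. In a whole ganglion, fewer cells of a type and less RNA per cell cannot be told apart.

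Pde11a (ENSMUSG00000075270) encodes a phosphodiesterase that splits both cAMP and cGMP. It was at 62.5, 69.6 and 75.9 CPM (lowest, median, highest) in iKO and at 51.0, 53.9 and 59.8 CPM in controls. Every iKO library lay above every control, and iKO 5 and iKO 6 were the 2 nearest to the controls. The mean was 69.0 ± 5.57 CPM in iKO and 54.8 ± 3.28 CPM in controls (n = 6 each), or 126% of the control level. The log2 fold change was 0.33 ± 0.060 (SE), with a 95% interval of 0.20 to 0.46. At an adjusted p threshold of 0.05 in edgeR, 1 of the 8 genes was called higher in iKO (Pde11a) and 1 lower (Adcy5). Of all genes tested, 0.379% were called, 0.174% higher and 0.204% lower. The groups did not overlap for the same 2 of 8, and for 1.20% of all genes tested, with 0.679% above and 0.523% below the controls. The genes were chosen on this contrast, so nothing is read from these counts. With 1 library left out, Pde11a was past the threshold only without iKO 6 and not without each of the other 11, while its log2 fold change stayed between 0.28 and 0.36. At the threshold itself, Ranbp3l was the last gene inside, with an adjusted p of 0.0485 in edgeR, and Prkcb the first outside, with 0.0511.

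**Figure D1:**
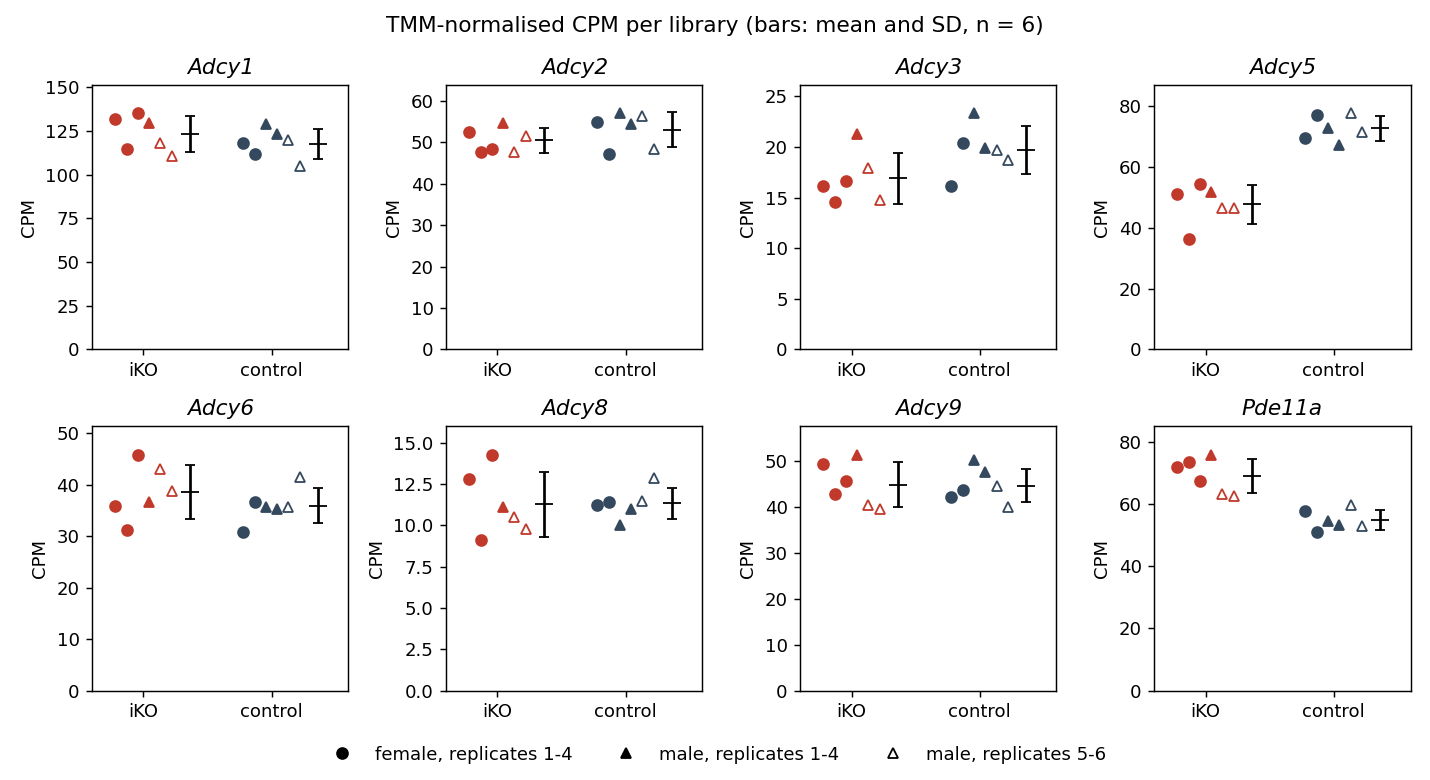
TMM-normalised CPM (y axes from 0) of each gene in the 6 iKO libraries and the 6 controls, with circles for females, triangles for males, open symbols for replicates 5 and 6, and bars for the mean and SD. The iKO points of Adcy5 (36.3 to 54.5 CPM) lie below all controls and those of Pde11a (62.5 to 75.9 CPM) above them, while the groups overlap for the other 6 genes.

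The calcium- and calmodulin-stimulated cyclases gave overlapping groups. Adcy1 was at 111, 124 and 135 CPM (lowest, median, highest) in iKO and at 105, 119 and 129 CPM in controls, a log2 fold change of 0.06 (95% interval -0.08 to 0.21). Adcy8 was at 9.11, 10.8 and 14.3 CPM in iKO and at 10, 11.3 and 12.9 CPM in controls, a log2 fold change of -0.03 (-0.27 to 0.21). The iKO values of Adcy8 spread on both sides of the control range. Adcy3, the cyclase of the olfactory transduction pathway and of primary cilia, was at 14.6, 16.4 and 21.3 CPM in iKO and at 16.1, 19.8 and 23.3 CPM in controls. Its log2 fold change was -0.19 (-0.40 to 0.01). Adcy3 shares 1380 exon bases with Cenpo, a centromere gene on the other strand. Because the libraries do not mark strand, reads from that stretch cannot be told apart, and Cenpo itself averaged 6.62 ± 0.82 CPM in iKO and 6.77 ± 0.44 CPM in controls.

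Adcy6, the closest relative of Adcy5 and likewise inhibited by Gi and calcium, was at 31.3, 37.7 and 45.9 CPM (lowest, median, highest) in iKO and at 30.8, 35.7 and 41.5 CPM in controls, a log2 fold change of 0.12 (95% interval -0.07 to 0.32). The groups overlapped over most of their range, and iKO 3 was the highest library. All 605 exon bases of the antisense gene Gm29331 lie within Adcy6 exons, and reads of these genes cannot be told apart there. Gm29331 had 0 counts in every library, which does not show its level if reads in shared stretches were not counted.

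Adcy2, a cyclase stimulated by G protein beta-gamma subunits together with Gs, was at 47.73, 50.03 and 54.81 CPM in iKO and at 47.3, 54.7 and 57.0 CPM in controls. Its log2 fold change was -0.06 (95% interval -0.18 to 0.06). Adcy9, which responds weakly to the plant compound forskolin that activates the other membrane-bound cyclases, was at 39.6, 44.3 and 51.4 CPM in iKO and at 39.9, 44.0 and 50.1 CPM in controls, a log2 fold change of 0.01 (-0.16 to 0.18). Adcy2 shares 189 exon bases with the antisense gene Gm35161, which averaged 0.26 CPM in iKO and 0.31 CPM in controls. The 2 groups covered nearly the same span for both genes.

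The other 3 cyclases of the family completed the picture. Adcy7, which belongs with Adcy2 among the cyclases that beta-gamma subunits stimulate, averaged 21.6 ± 0.99 CPM in iKO and 23.4 ± 1.70 CPM in controls, and did not pass (log2 fold change -0.12, edgeR adjusted p = 0.49). Adcy4, of the same group, averaged 2.195 ± 0.57 CPM in iKO and 2.63 ± 0.79 CPM in controls, and did not pass (-0.26, edgeR adjusted p = 0.737). Adcy10, the soluble cyclase driven by bicarbonate, had 1 to 6 counts per iKO library and 2 to 10 per control library, too few to be tested.

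Levels of different genes were compared per kilobase of exon. All exon bases were used, also those that Adcy2, Adcy3 and Adcy6 share with other genes. Reads there may not have been counted, which would understate these genes. In iKO the order was Pde11a (13.3 ± 1.07 CPM per kb), Adcy2 (11.99 ± 0.70), Adcy1 (9.86 ± 0.81), Adcy9 (8.64 ± 0.93), Adcy5 (6.65 ± 0.90), Adcy6 (5.69 ± 0.77), Adcy3 (2.71 ± 0.40) and Adcy8 (1.38 ± 0.24), each as mean and SD of 6 libraries. Adcy5 lay below Adcy9 without overlap, and its range overlapped that of Adcy6. Pde11a overlapped Adcy2, and Adcy1 overlapped Adcy9. In controls the order was Adcy2 (12.6 ± 1.00), Pde11a (10.5 ± 0.63), Adcy5 (10.1 ± 0.58), Adcy1 (9.41 ± 0.68), Adcy9 (8.59 ± 0.71), Adcy6 (5.30 ± 0.51), Adcy3 (3.16 ± 0.38) and Adcy8 (1.39 ± 0.11). The ranges of neighbours overlapped from Adcy2 down to Adcy9, while Adcy2 lay above Adcy5, Adcy1 and Adcy9 without overlap, and Pde11a above Adcy9. Adcy9, Adcy6, Adcy3 and Adcy8 were each separated from the next.

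**Figure D2:**
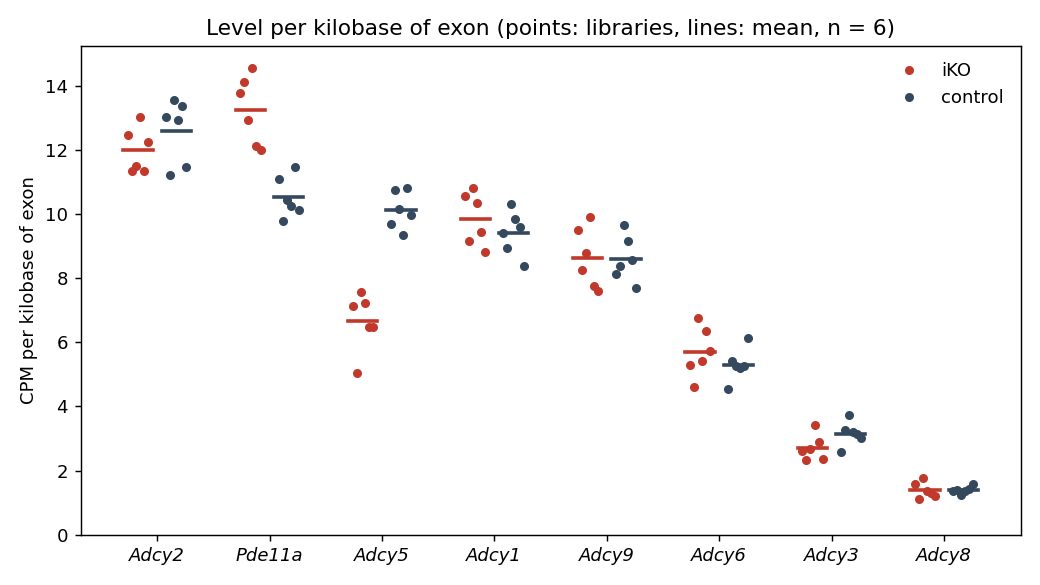
CPM per kilobase of exon (y axis from 0) of the 8 genes in the order of their control means, with iKO left of control, a point per library and a line at the mean. Adcy5 stands at 6.65 in iKO and 10.1 in controls, and Pde11a at 13.3 in iKO and 10.5 in controls.

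Summed over all 10 cyclases, the level was 50.6 ± 3.64 CPM per kb in iKO and 54.6 ± 1.98 CPM per kb in controls (SD, n = 6 each). These sums ran from 45.3 to 54.5 in iKO and from 52.7 to 57.8 in controls and overlapped. Adcy5 made up 13.1 ± 1.02% of the sum in iKO and 18.6 ± 1.08% in controls. Adcy1 made up 19.5 ± 0.74% in iKO and 17.2 ± 0.84% in controls, and Adcy2, the largest part in both groups, 23.8 ± 1.48% in iKO and 23.1 ± 1.44% in controls. A share also rises when another part of the sum falls, and the level of Adcy1 itself overlapped between the groups.

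Among 24 phosphodiesterase genes, Pde11a ranked second per kilobase of exon in both groups. Only Pde6d was above it, at 21.4 ± 1.59 CPM per kb in iKO and 21.3 ± 2.06 in controls; Pde6d encodes a carrier of lipid-modified proteins and no catalytic subunit. Pde1c, a calmodulin-stimulated enzyme, came next at 5.88 ± 0.54 in iKO and 5.44 ± 0.55 in controls, and its range stayed below that of Pde11a in both groups. The remaining genes were at or below 3.94 CPM per kb in iKO and 3.87 in controls. The lengths are those of all annotated exons in GENCODE M21, so a gene with long, rarely used exons is understated.

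Sex was a measure that the choice of the genes did not use. Between 7 males and 5 females, edgeR called 0.108% of all genes and none of the 8, of which none was under an unadjusted p of 0.05 and none was called by DESeq2. Adcy3 had the smallest p, with 19.4 ± 2.69 CPM in males and 16.8 ± 2.17 CPM in females, a log2 difference of 0.17 (95% interval -0.04 to 0.38; edgeR adjusted p = 0.554). The other 7 differences ran from -0.11 for Adcy8 to 0.10 for Adcy6. The interval for Adcy5 was -0.18 to 0.19 and that for Pde11a -0.16 to 0.10.

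The iKO effect was also compared between the sexes with an interaction term. No gene of the 16637 passed in edgeR, where 318 had an unadjusted p under 0.05, and none passed in DESeq2. None of the 8 was under an unadjusted p of 0.05. In males Adcy5 averaged 48.3 ± 3.05 CPM in iKO (n = 3) and 72.4 ± 4.35 CPM in controls (n = 4), and in females 47.3 ± 9.69 CPM in iKO (n = 3) and 73.5 ± 5.39 CPM in controls (n = 2). Its log2 fold change was -0.59 in males and -0.63 in females, a difference of 0.05 (95% interval -0.35 to 0.44). For Pde11a it was 0.29 in males and 0.38 in females, a difference of -0.10 (-0.37 to 0.18).

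The replicate sets, which differed in the kind of control, were compared in the same way. In replicates 5 and 6 iKO and control were males of 1 genotype that differed in the injection. In replicates 1 to 4 all received tamoxifen and differed in genotype. The sets also held different iKO libraries, so the kind of control cannot be told apart from any other difference between the sets. Adcy5 averaged 46.5 ± 0.12 CPM in iKO and 74.7 ± 4.30 CPM in controls in replicates 5 and 6 (n = 2 each), and 48.4 ± 8.23 CPM in iKO and 71.8 ± 4.39 CPM in controls in replicates 1 to 4 (n = 4 each). The groups did not overlap in either set. Its log2 fold change was -0.68 in replicates 5 and 6 and -0.56 in replicates 1 to 4, a difference of -0.12 (95% interval -0.53 to 0.29).

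Pde11a averaged 62.8 ± 0.47 CPM in iKO and 56.3 ± 4.91 CPM in controls in replicates 5 and 6, and 72.2 ± 3.61 CPM in iKO and 54.1 ± 2.79 CPM in controls in replicates 1 to 4. Between the sets the iKO means lay further apart than the control means. The log2 fold change of Pde11a was 0.16 in replicates 5 and 6 and 0.42 in replicates 1 to 4. The difference between these was -0.26 (95% interval -0.50 to -0.03), with an unadjusted p of 0.0294 in edgeR and an adjusted p of 1.00 over all genes. It was the only one of the 8 under an unadjusted p of 0.05, and edgeR called no gene of the 16637 for this difference, where 568 had an unadjusted p under 0.05. DESeq2 called 5 genes and none of the 8.

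**Figure D3:**
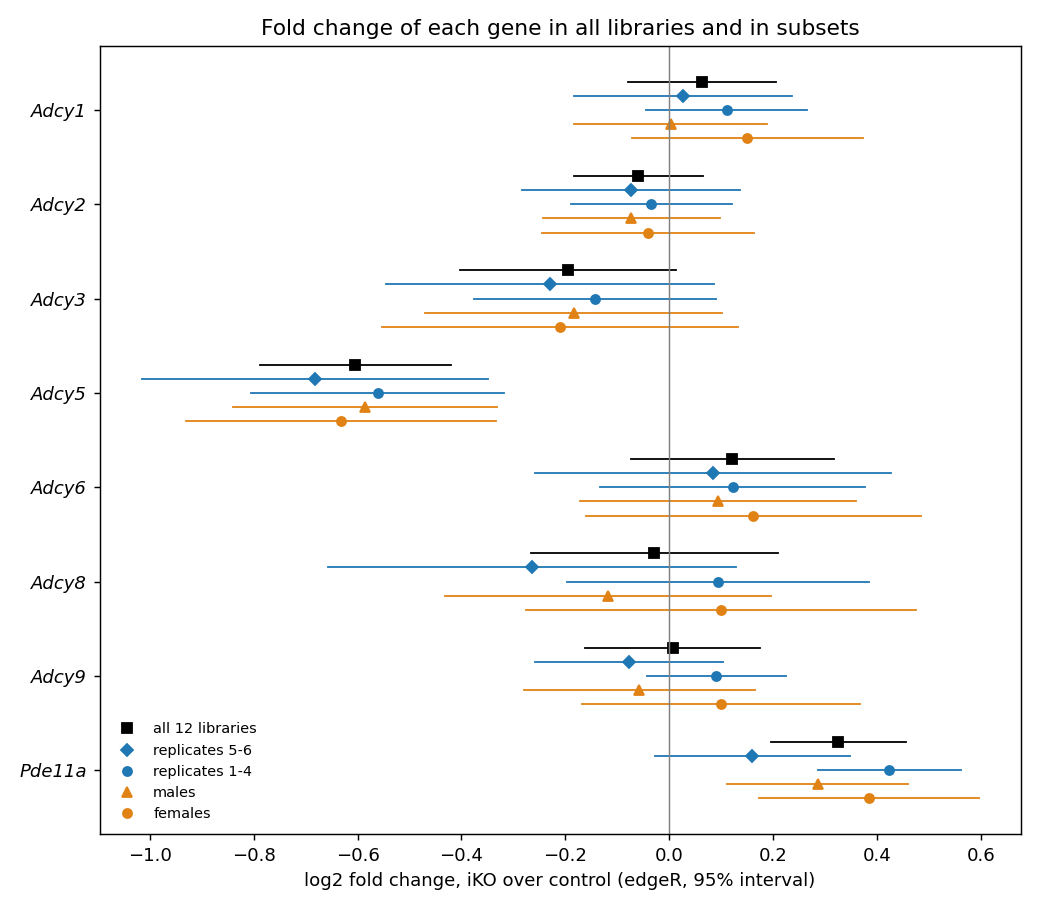
Log2 fold change of iKO over control (x axis) with its 95% interval from edgeR for each gene, in all 12 libraries (black squares), by replicate set (blue) and by sex (orange). All 5 intervals of Adcy5 lie below 0, and those of Pde11a lie above 0 except in replicates 5 and 6, where the fold change is 0.16. The subsets are parts of the 12 libraries on which the genes were chosen, so the intervals are a description.

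Genes around the cyclases in the same pathway were read from 15 lists with 230 genes, of which 185 were tested. Of these, 1 rose and 2 fell in iKO, or 1.62%, against 0.379% of all genes. Their median log2 fold change was -0.05, against 0.001 over all genes tested. At an unadjusted edgeR p under 0.05, 5 of the 185 were higher and 29 lower, against 816 higher and 998 lower of all 16637 genes. In 6 of the 185 (3.24%) the groups did not overlap, against 1.20% of all genes. The lists were written with earlier results of these data known, so these shares are a description and nothing is read from them.

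The 3 that passed stand at different steps. Gnao1, which encodes the alpha subunit of the inhibitory-type G protein Go, was at 427, 472 and 523 CPM (lowest, median, highest) in iKO and at 531, 590 and 614 CPM in controls. It fell by 0.29 ± 0.052 on the log2 scale (edgeR adjusted p = 0.0397), and all 6 iKO libraries lay below all controls. Gnao1 shares 284 exon bases with the antisense gene 4930488L21Rik, which averaged 1.504 ± 0.40 CPM in iKO and 1.92 ± 0.44 CPM in controls. Pkib, which encodes an inhibitor of protein kinase A, was at 11.1, 13.2 and 14.9 CPM in iKO and at 15.2, 19.4 and 23.4 CPM in controls. It fell by 0.55 ± 0.10 on the log2 scale (edgeR adjusted p = 0.0435), again with all 6 iKO libraries below all controls. With 1 library left out, Gnao1 passed only without iKO 4 or control 6 and Pkib only without control 6, at log2 fold changes of -0.32 to -0.26 and -0.61 to -0.49. Drd1, a Gs-coupled dopamine receptor, rose by 1.71 ± 0.24 on the log2 scale (edgeR adjusted p = 0.00823), with 1.39 ± 0.18 CPM in iKO and 0.42 ± 0.16 CPM in controls (n = 6 each). Its level reached the 0.58 CPM of the filter on low counts in 6 of 6 iKO libraries and 1 of 6 controls, so it was tested only through the group where it is high. Without Drd1 and 2 other genes that reached this level in fewer than 3 libraries of a group, 2 of 182 pathway genes (1.10%) passed.

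Upstream of the cyclases, none of 8 other tested alpha subunit and Ric8 genes, 16 beta and gamma subunit genes and 17 RGS genes passed. RGS proteins shorten G protein signals. Gng8, a gamma subunit, averaged 9.46 ± 2.03 CPM in iKO and 15.3 ± 2.25 CPM in controls (log2 fold change -0.67, edgeR adjusted p = 0.0562), and Gng2 had a log2 fold change of -0.21. Rgs16 averaged 2.97 ± 0.39 CPM in iKO and 4.58 ± 0.85 CPM in controls (-0.66, edgeR adjusted p = 0.0511), with no overlap between the groups. Rgs8 averaged 48.2 ± 6.54 CPM in iKO and 71.7 ± 10.5 CPM in controls (-0.57, edgeR adjusted p = 0.0562). Gng8, Rgs16 and Rgs8 lay just outside the threshold. DESeq2, which called 332 genes against 63 in edgeR, called all 3. With 1 library left out, each passed in edgeR in 1 of 12 fits.

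Among receptors, 1 of 26 Gs-coupled genes passed (Drd1) and none of 36 Gi-coupled genes. The serotonin receptor gene Htr1d, a Gi-coupled target of the triptans, averaged 51.7 ± 4.98 CPM in iKO and 41.1 ± 4.65 CPM in controls without overlap (log2 fold change 0.34, edgeR adjusted p = 0.118). The somatostatin receptor gene Sstr4 averaged 0.74 ± 0.22 CPM in iKO and 1.67 ± 0.66 CPM in controls (-1.07, edgeR adjusted p = 0.103). The median log2 fold change was 0.03 over the Gs-coupled list and -0.11 over the Gi-coupled list.

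Downstream, none of the 15 other phosphodiesterases that split cAMP and none of the 4 tested cGMP-specific phosphodiesterase genes passed. Those nearest by p were Pde3b (log2 fold change -0.15, edgeR adjusted p = 0.154) and Pde1b (-0.37, edgeR adjusted p = 0.243), and on the cGMP side Pde5a (-0.52) and Pde9a (-0.24). Of 9 genes for protein kinase A subunits and inhibitors, only Pkib passed. No gene passed among 16 A-kinase anchoring proteins, with Map2 at 0.13 and Wasf1 at -0.18, or among 7 EPAC, Rap and POPDC genes, with Bves at -0.40 and Rapgef4 at 0.06. None passed among 6 cyclic nucleotide-gated and HCN channel genes, with Hcn4 at -0.19, or among 8 genes of the CREB family and its coactivators, with Ep300 at -0.11 and Atf1 at -0.19. The same held for 7 guanylyl cyclase genes, with Gucy2e at -0.73 and Gucy1a1 at -0.34, and for 7 calmodulin and calcineurin genes, with Calm3 at 0.02. All these values are log2 fold changes.

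**Figure D4:**
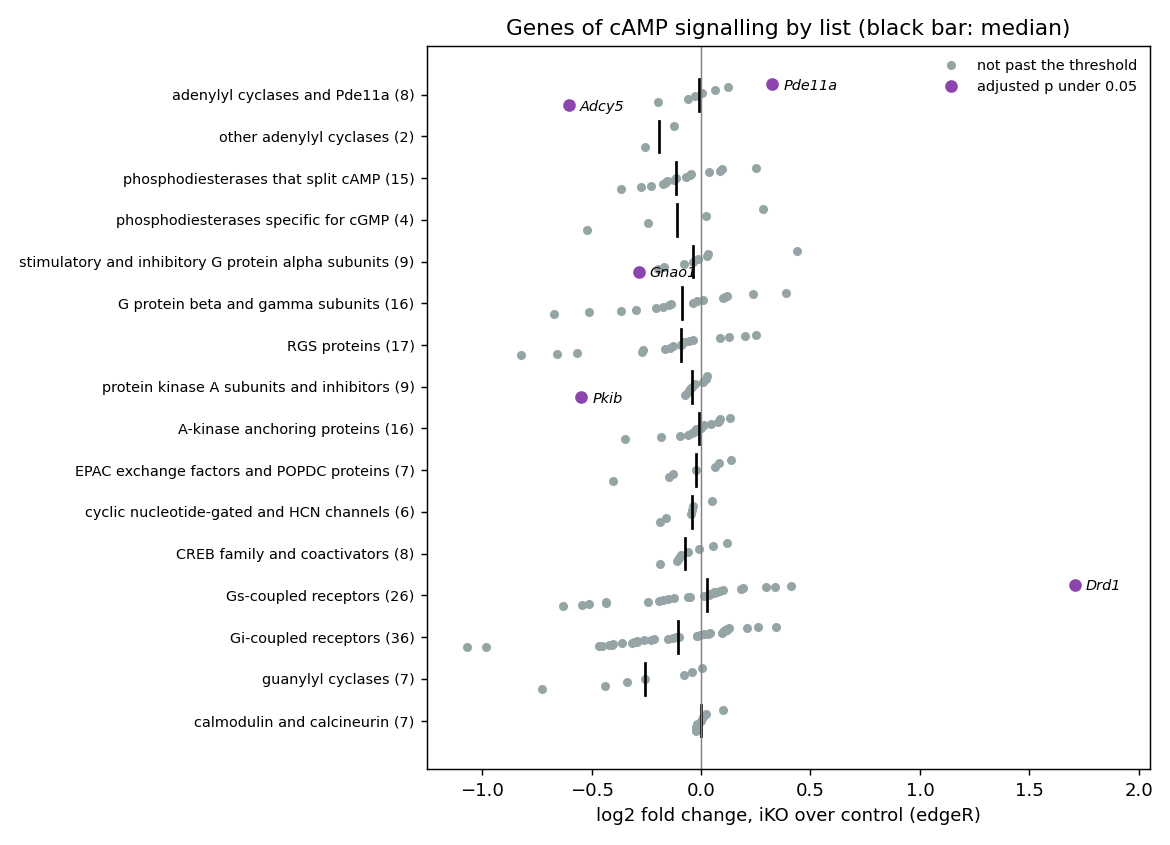
Log2 fold change of iKO over control (x axis) for the 8 genes and for 185 tested pathway genes in 15 lists, with list sizes in brackets, a black bar at each median, and purple points for an edgeR adjusted p under 0.05. Outside Adcy5 and Pde11a the purple points are Gnao1, Pkib and Drd1.

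Cell type markers were read beside these values. None of 14 markers of sensory neurons in general passed, their median log2 fold change was 0.01, and their summed level ran from 17780 to 21440 CPM in iKO and from 17050 to 21050 CPM in controls. Of 10 markers of peptidergic nociceptors 2 fell (sums of 1145 to 1440 CPM in iKO and 1337 to 1629 CPM in controls), and of 12 markers of nonpeptidergic nociceptors 1 rose and 1 fell (sums of 1866 to 2313 CPM in iKO and 1931 to 2461 CPM in controls). Of 12 Schwann cell markers 1 rose, of 12 satellite glia markers none passed, and of 12 markers of fibroblasts and meninges 2 fell, with sums of 1431 to 2682 CPM in iKO and 2071 to 3694 CPM in controls. None passed among 5 markers of cold-sensing and C-fibre touch neurons, 10 of large myelinated neurons, 13 of endothelium and mural cells, 10 of macrophages, 7 tested of brain neurons and 8 tested of lymphocytes, nor in the lists of oligodendrocytes and astrocytes, skeletal muscle, pituitary and red blood cells. Of 6 tested choroid plexus markers 1 fell, Aqp1, a water channel that other tissues also express (log2 fold change -0.54), and the list had sums of 179 to 219 CPM in iKO and 267 to 317 CPM in controls that did not overlap. The sums overlapped for the other 16 lists. Of all markers, only the pituitary gene Lhb was at 0 counts in every library. The median log2 fold change was -0.22 over the peptidergic list, -0.06 over the nonpeptidergic list, -0.24 over the cold-sensing and C-fibre touch list and 0.06 over the large myelinated list. It was 0.15 for Schwann cells, -0.05 for satellite glia, -0.45 for fibroblasts and meninges, -0.14 for endothelium and mural cells, -0.24 for macrophages and -0.66 for choroid plexus. It was -0.67 for lymphocytes, -0.19 for brain neurons, -1.03 for oligodendrocytes and astrocytes, 1.24 for skeletal muscle, 0.03 for pituitary and -0.99 for red blood cells. The part of these cell types in the values of Adcy5 and Pde11a was not tested. Without control 6, iKO 3 and iKO 5, a choice made after seeing the data, the log2 fold change was -0.64 for Adcy5 and 0.36 for Pde11a. Of these 2 genes, only Adcy5 was past the threshold in edgeR in that setting.

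The genes with the most similar pattern to each gene were taken as those with the highest Pearson r of log2(CPM + 1) among 14180 genes, after each group's mean was subtracted, over 12 libraries. Nearest to Adcy5 were Naglu (r = 0.966), Fbxw8 (0.961) and Ocel1 (0.956), with log2 fold changes in iKO of -0.30, 0.03 and 0.07. Nearest to Pde11a were St7 (0.877), Tdrd7 (0.866) and Sqle (0.864), with log2 fold changes of 0.05, 0.10 and -0.01. The single nearest gene was Rarres1 (0.937) for Adcy2, Mslnl (0.938) for Adcy3, Prr14 (0.955) for Adcy6, Rtl5 (0.954) for Adcy8 and Mmp24 (0.960) for Adcy9. These are the extremes of many values over few libraries, which share depth and tissue makeup, and carry no test.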

How the data were processed

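The authors deposited raw counts of reads per gene, 1 table per library, with no normalization. Per the submitters' processing notes, bcl2fastq 2.20.0.422, STAR 2.7.8a, featureCounts 2.0.1 and build GRCm39 were used; per the labels' protocols, the TruSeq libraries were not stranded. The sources used here do not give the annotation release or the counting options. Of 55416 identifiers, 52083 had a symbol in GENCODE M21 (GRCm38), which also gave exon lengths and overlaps; 1 listed symbol had no match.

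Counts were tested with edgeR 4.0.16 (R 4.3.3): filterByExpr, TMM, quasi-likelihood with sex as covariate, Benjamini-Hochberg over 16637 genes, threshold 0.05. Interaction and replicate-set contrasts used all 12 libraries. The labels do not say whether each library came from a separate animal, so p-values measure the spread between these libraries, which may be technical. Pairs of libraries within a group differed by a chi-square of 7.62 to 29.4 per degree of freedom. A count of 0 allows up to 0.124 CPM in the deepest library and 0.227 CPM in the shallowest (3 counts, counting error only).

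The genes and lists were chosen with earlier results of these data known. Named are the 8 genes, the other cyclases and Prdm12, in each list the genes past the threshold (up to 4) or else the 2 smallest p, and for likeness the 3 highest r; genes of the overlaps and of the phosphodiesterase order were named after their values were seen. Some genes that this rule names are not reported here. Alternatives were scaling, filters, DESeq2 1.42.0, limma-voom (limma 3.58.1), covariates, a replicate block, subsets and leaving out each library.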

Additional observations from a re-analysis of the deposited data

Results flagged for a closer look

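In 72 groups of 6 libraries, over the genes named by rule, 2 groups held a library set apart from the other 5 by more than Dixon's 95% critical value, where chance flags about 1 group in 20. Pde5a stood at 15.9 CPM in control 6, the highest of the controls. Rapgef4 stood at 254.5 CPM in control 4, the lowest of the controls. None of the 8 genes had such a library in either group.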

How the results depend on the processing

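The count of genes called between iKO and control, 63, was 332 with DESeq2, 138 with no filter, 28 in tamoxifen-injected animals only, 15 with a replicate block, 12 in replicates 1 to 4 alone, 4 in females alone, 1 in males alone and 0 in replicates 5 and 6 alone, and ran from 23 to 88 with 1 library left out. Of the 8 genes, 2 were past the threshold. This was 1 (Adcy5) in tamoxifen-injected animals only and without control 6, iKO 3 and iKO 5. It was 0 with the block and in each of the 4 smaller subsets, and 1 to 2 with 1 library left out. The 3 pathway genes became 10 with DESeq2, 6 with no filter, 0 with the block and in each of the 4 smaller subsets, and 1 to 5 with 1 library left out. The 18 genes called between the sexes became 50 with DESeq2 and 33 with no filter, and 11 to 15 with 1 library left out. For the difference between replicate sets, 0 became 5 with DESeq2 and 578 with no filter, and 0 to 15 with 1 library left out. The causes were not tested, beyond the subsets holding fewer samples. Adcy5 kept its sign in all 26 alternatives (-0.69 to -0.55) and so did Pde11a (0.16 to 0.43). Adcy8 and Adcy9 changed sign in some, at no more than 0.27 from 0. The alternatives reuse the libraries on which the genes were chosen, so these signs are a description and no test. The labels do not say what a shared replicate number means, and the numbers were not taken as pairs. Same-numbered libraries deviated together with r from -0.40 to 0.35, which cannot exclude a pairing. With the block the log2 fold change was -0.65 for Adcy5 and 0.33 for Pde11a.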
